A study of Arabidopsis thaliana with 9 samples.

Results

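The jasmonate genes described here are 36 loci of Arabidopsis thaliana, chosen by locus identifier for their known roles in jasmonate synthesis, signalling and response, among 33602 loci measured. By role they comprised 11 genes of synthesis, 12 of repression, 6 for the receptor and transcriptional activators, 2 of hormone turnover and 5 responding outputs. Poly(A) RNA was sequenced from 9 samples of young rosette leaves of the accession Col-0. The plants were 8 weeks old, grown in short days, and leaves were taken 2 h into the light (125 µE m-2 s-1). The genotypes, with 3 biological replicates each, were the triple mutant ntrc-2cpab, the double mutant 2cpab and the wild type, and every replicate pooled leaves of 3 plants. The double mutant 2cpab is without both 2-Cys peroxiredoxins (A and B) of the chloroplast, which reduce hydrogen peroxide, and ntrc-2cpab additionally lacks NTRC, the NADPH-dependent thioredoxin reductase that reduces them. The labels name neither alleles nor independent lines, and any further difference of a mutant line from Col-0 is confounded with its mutations.

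Jasmonate is made from a plastid fatty acid. Lipoxygenases (LOX), allene oxide synthase (AOS) and allene oxide cyclases (AOC) act in the chloroplast, the reductase OPR3 and the ligase OPCL1 act in the peroxisome, and JAR1 then couples jasmonic acid to isoleucine. The conjugate is perceived by COI1 together with JAZ repressors, which are degraded and release MYC transcription factors. JAZ and synthesis genes are themselves jasmonate-induced, and wounding is the best known trigger in leaves. Outputs fall into a MYC branch, marked by the vegetative storage protein genes VSP1 and VSP2, and a branch shared with ethylene and driven by ERF1 and ORA59, marked by the defensin gene PDF1.2.

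No jasmonate gene passed the test in either mutant, and the spread between samples of one genotype was wide. Values are abundances calculated back from the deposited log2 values, and are scaled per sample by the authors. Of the 36 genes, 31 averaged 1 or more in abundance across the 9 samples and were tested. JAZ7, JAZ8, ERF1, ORA59 and THI2.1 fell below that level. In ntrc-2cpab against the wild type, 0 of 31 genes were called by limma with Benjamini-Hochberg adjustment over all 16384 genes tested, where 3.94% of all genes were called. An unadjusted p under 0.05 was reached by 4 of the 31, and by 24.4% of all genes. In 2cpab against the wild type, 0 of 31 were called by limma, where 0.134% of all genes were called, and 2 of the 31 had an unadjusted p under 0.05, as did 17.3% of all genes. Between ntrc-2cpab and 2cpab, 0 of 31 were called by limma, where 0.0061% of all genes were called, and 0 had an unadjusted p under 0.05, against 4.32% of all genes. The lowest adjusted p among the tested jasmonate genes was 0.157 in ntrc-2cpab and 0.198 in 2cpab against the wild type (limma). Both mutants were set against the same wild-type samples, so these 2 comparisons are not independent.

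The precision was lower for these genes than for the table as a whole. The SD between replicates, pooled over genotypes on the log2 scale, had a median of 0.41 over the 31 genes and 0.13 over all tested genes, and 28 of the 31 lay above that all-gene median. It ran from 0.087 for MYC3 to 1.53 for VSP2. The 95% interval of a log2 fold change accordingly reached 0.62 to either side at the median of the 31 genes, against 0.24 at the median of all genes. For VSP2 it reached 2.24, so even large differences in this gene would not have been resolved.

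The samples carried the losses their labels name. 2CPA stood between 3.43 and 4.85 in the mutants and between 259 and 325 in the wild type. 2CPB stood between 8.88 and 10.8 in the mutants and between 53.0 and 63.4 in the wild type. NTRC stood between 14.7 and 18.3 in ntrc-2cpab, between 60.9 and 68.1 in 2cpab and between 74.5 and 80.2 in the wild type. In 2cpab against the wild type NTRC was not called (limma adjusted p = 0.217). Mesophyll marker genes RBCS1A, LHCB1.3 and RCA summed to between 23984 and 25435 in ntrc-2cpab, between 23792 and 25133 in 2cpab and between 25557 and 31825 in the wild type, and no single value of 6 floral genes exceeded 0.196. Read depth is unknown, because the table holds no counts. Wild type replicate 1 was the highest of the 9 samples in 20.5% and the lowest in 23.2% of all tested genes. In bulk leaves, fewer cells of a type and less RNA per cell cannot be told apart.

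Upstream sequences are shown for 5 genes on which the description below turns: LOX2, which separated 2cpab from the wild type, JAZ8, which separated both mutants from it, the pair VSP1 and VSP2, which varied most, and PDF1.2 of the ethylene branch. Each is the 250 bases before the annotated gene start, read 5′ to 3′ on the gene's strand from the RefSeq genome and annotation of TAIR10.1. The windows are chr3:16524995-16525244 on the plus strand, chr1:10596102-10596351 on the plus strand, chr5:8509202-8509451 on the minus strand, chr5:8502225-8502474 on the minus strand and chr5:17907639-17907888 on the minus strand, in the order printed. None of them overlapped another annotated gene. Capitals mark motifs in LOX2, JAZ8 and PDF1.2, and in VSP1 and VSP2 the longest run that both windows share.
LOX2: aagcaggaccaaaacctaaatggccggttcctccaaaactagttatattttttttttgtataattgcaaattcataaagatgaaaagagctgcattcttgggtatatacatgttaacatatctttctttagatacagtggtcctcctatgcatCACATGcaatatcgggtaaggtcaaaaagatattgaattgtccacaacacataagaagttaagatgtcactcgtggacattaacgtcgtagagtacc
JAZ8: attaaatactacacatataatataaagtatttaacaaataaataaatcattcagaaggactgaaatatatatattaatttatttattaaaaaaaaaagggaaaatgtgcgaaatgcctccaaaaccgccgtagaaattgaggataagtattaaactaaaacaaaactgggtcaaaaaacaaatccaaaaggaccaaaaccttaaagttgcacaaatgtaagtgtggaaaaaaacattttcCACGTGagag
VSP1: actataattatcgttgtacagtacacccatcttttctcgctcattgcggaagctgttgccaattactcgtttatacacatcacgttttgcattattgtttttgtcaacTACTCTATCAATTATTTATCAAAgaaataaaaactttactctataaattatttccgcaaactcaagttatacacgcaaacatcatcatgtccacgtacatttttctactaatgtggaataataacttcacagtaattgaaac
VSP2: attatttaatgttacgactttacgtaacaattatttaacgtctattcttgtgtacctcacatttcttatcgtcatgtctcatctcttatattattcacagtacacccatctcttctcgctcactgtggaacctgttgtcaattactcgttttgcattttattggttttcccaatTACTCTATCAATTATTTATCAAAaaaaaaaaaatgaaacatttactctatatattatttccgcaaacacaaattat
PDF1.2: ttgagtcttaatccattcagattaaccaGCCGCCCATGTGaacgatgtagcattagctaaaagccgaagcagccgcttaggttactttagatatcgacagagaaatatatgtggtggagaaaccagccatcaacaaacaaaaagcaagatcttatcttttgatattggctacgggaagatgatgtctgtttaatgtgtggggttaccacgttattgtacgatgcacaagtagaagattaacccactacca

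The motifs searched, on both strands, were the G-box CACGTG and its wider form CACNTG, to which MYC factors bind, and GCCGCC, the core of the box that ERF factors bind. CACNTG includes every CACGTG. The LOX2 window held a CACNTG match starting 97 bases before the gene, and JAZ8 a G-box starting 10 bases before it. In PDF1.2 the GCCGCC match started 222 bases and a CACNTG match 216 bases before the gene, side by side. A G-box was present in 6 of the 36 windows and in 6.49% of 27437 windows of protein-coding genes. The wider form CACNTG was present in 17 of 36 windows, against 26.2% of all. GCCGCC was found in PDF1.2 and ORA59, and in 1.87% of all windows. VSP1 and VSP2 held none of these letters within 250 bases, and their shared run was 23 bases long, starting 142 and 76 bases before the gene.

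**Figure D1:**
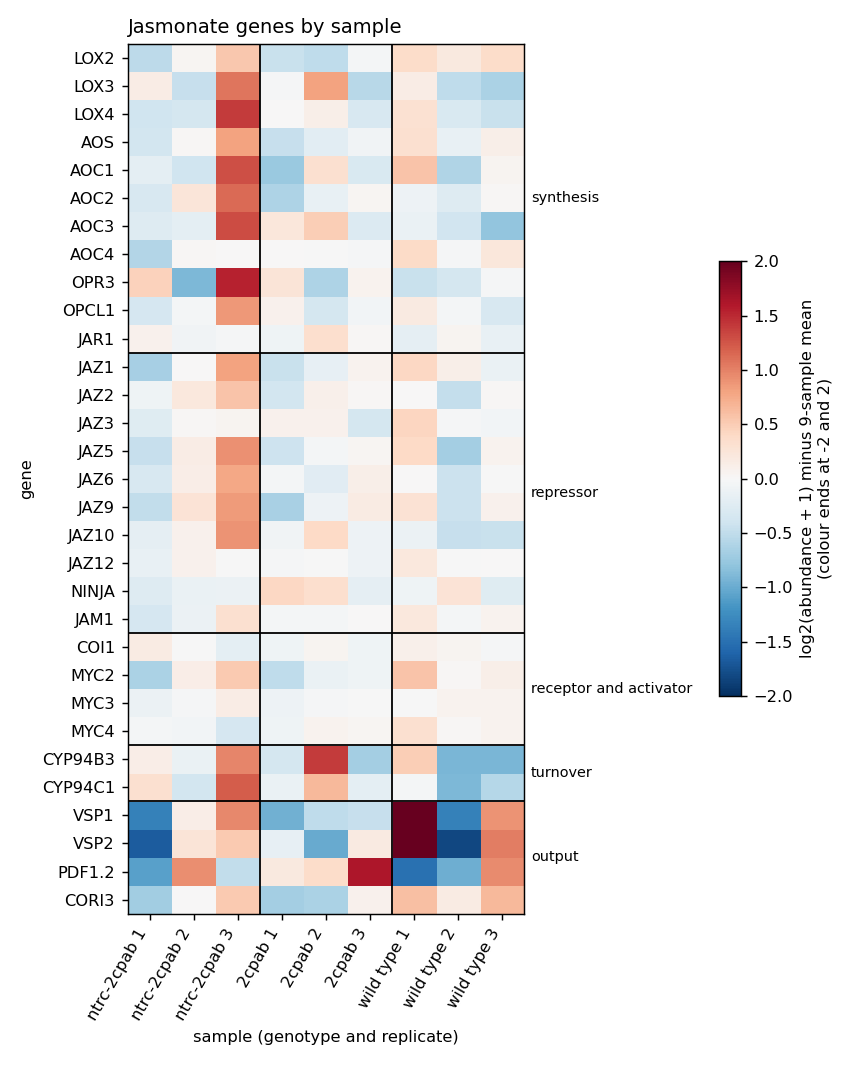
Heatmap of the 31 tested jasmonate genes (rows, by role) in the 9 samples (columns), as log2(abundance + 1) minus the gene's mean over the 9 samples. Replicate 3 of ntrc-2cpab is the highest sample in 18 of the 31 genes, while VSP1 and VSP2 are highest in wild type replicate 1.

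One sample, ntrc-2cpab replicate 3, stood high for synthesis and repressor genes. The receptor and MYC genes were split: COI1 and MYC4 were lowest there and MYC3 highest. MYC2, at 29.8 there, was exceeded only in wild type replicate 1 (30.5). Of the turnover genes, CYP94C1 was highest in ntrc-2cpab replicate 3 and CYP94B3 in 2cpab replicate 2. Replicate 3 of ntrc-2cpab was the highest of the 9 samples in 18 of the 31 genes, whereas over all tested genes it was highest in 14.2%. Replicate 1 of the same genotype was the lowest sample in 10 of 31, against 10.7% of all genes. The median deviation of the 11 synthesis genes from their 9-sample means was -0.31, -0.070 and 1.07 on the log2 scale in ntrc-2cpab replicates 1, 2 and 3. In 2cpab it was -0.023, -0.013 and -0.050, and in the wild type it was 0.18, -0.26 and -0.022. Repressor genes followed the same order within ntrc-2cpab, at -0.29, 0.083 and 0.68. In 2cpab they stood at -0.062, -0.021 and 0.014, and in the wild type at 0.21, -0.24 and -0.0050. These medians differed more within ntrc-2cpab than within 2cpab. Single genes still varied within 2cpab, as the values of OPR3 and JAZ9 below show.

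Among synthesis genes, LOX2 separated 2cpab from the wild type. LOX2 (AT3G45140), the main leaf lipoxygenase of the pathway, had an abundance of 257, 381 and 541 in ntrc-2cpab, 271, 261 and 361 in 2cpab, and 479, 425 and 479 in the wild type. All 2cpab samples lay below all wild-type samples, and ntrc-2cpab spanned both. The means were 298 ± 55.3 in 2cpab and 461 ± 31.0 in the wild type (SD, n = 3 each, log2 fold change -0.64 with a 95% interval from -1.17 to -0.11, limma adjusted p = 0.208). For ntrc-2cpab against the wild type the LOX2 log2 fold change was -0.29 (limma adjusted p = 0.481), and for ntrc-2cpab against 2cpab it was 0.35 (limma adjusted p = 0.993). Over all tested genes 11.6% were lower in 2cpab without overlap between the groups.

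AOC2 (AT3G25770), the cyclase gene with the highest abundance here, stood at 40.8, 60.5 and 112 in ntrc-2cpab, 32.6, 45.8 and 52.5 in 2cpab and 47.5, 42.3 and 51.7 in the wild type. The high mean of 71.2 ± 37.0 in ntrc-2cpab thus came with a wide spread, and the groups overlapped (log2 fold change 0.46 against the wild type, limma adjusted p = 0.396). OPR3, the peroxisomal reductase, given in full after its values were seen, showed the same sample at the top, with 28.1, 10.3 and 60.5 in ntrc-2cpab, 24.3, 12.7 and 21.0 in 2cpab and 14.4, 15.5 and 19.7 in the wild type. The lipoxygenase gene LOX3 reached 25.0 in ntrc-2cpab replicate 3, and lay between 7.02 and 20.8 in the other 8 samples. LOX4 reached 15.6 there, and lay between 3.63 and 6.73 elsewhere. So both genes peaked in the same sample. AOS, the only allene oxide synthase gene of this plant, had 86.7 in that sample and between 35.5 and 61.6 elsewhere. AOC1 had 30.6 there and between 6.69 and 18.2 elsewhere, and AOC3 had 14.0 there and between 2.53 and 7.52 elsewhere. OPCL1, which activates the precursor for oxidation in the peroxisome, had 58.0 there and between 24.4 and 35.5 elsewhere. AOC4 and JAR1 did not share this peak. AOC4 was lower in estimate in ntrc-2cpab, at 6.35, 10.2 and 10.05 against 13.3, 9.83 and 11.9 in the wild type (log2 fold change -0.38, unadjusted p = 0.043, limma adjusted p = 0.191). JAR1, which forms the active conjugate, stayed between 13.5 and 19.8 in all 9 samples.

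Over the 11 synthesis genes the median log2 fold change was 0.23 in ntrc-2cpab and -0.041 in 2cpab against the wild type, beside 0.0018 and 6.4e-05 over all genes. In ntrc-2cpab 9 of the 11 estimates were positive, and in 2cpab 5. The ntrc-2cpab value rested on 1 sample: without ntrc-2cpab replicate 3 the median was -0.13. It was 0.47 without wild type replicate 1, and 0.48 and 0.52 without ntrc-2cpab replicates 1 and 2. In 2cpab the median turned to 0.081 without wild type replicate 1, and lay between -0.068 and -0.0024 without any other single sample of 2cpab or the wild type. AOC1 and AOC2 share 90.3% of aligned coding bases, and LOX3 and LOX4 81.1%, so the split of reads within these pairs is uncertain to that extent.

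**Figure D2:**
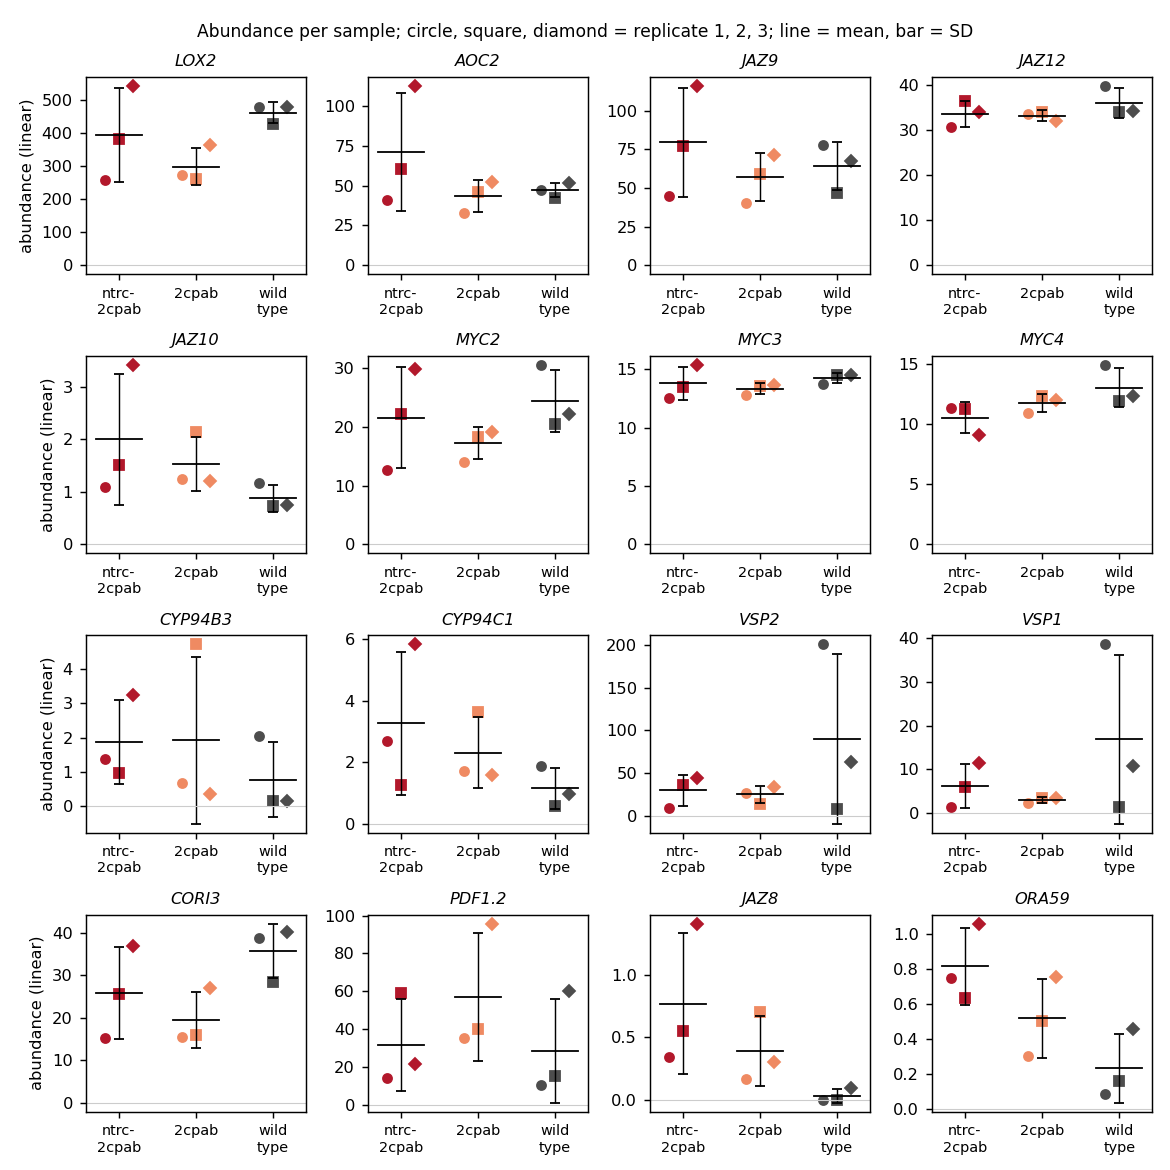
Abundance (linear scale, arbitrary sample-scaled units) of 16 jasmonate genes in each sample of ntrc-2cpab, 2cpab and the wild type, with the mean (line) and SD (bar) of 3 replicates. LOX2 and CORI3 are lower in every 2cpab sample than in any wild-type sample, and VSP1 and VSP2 spread most within the wild type.

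JAZ9 and JAZ12 were the repressor genes with the highest abundance, and they varied very differently. JAZ9 (AT1G70700) stood at 45.0, 77.5 and 116 in ntrc-2cpab, 40.5, 59.1 and 71.4 in 2cpab and 78.1, 47.1 and 67.5 in the wild type, with full overlap. JAZ12 (AT5G20900) held between 30.6 and 36.3 in ntrc-2cpab, between 31.9 and 34.0 in 2cpab and between 33.9 and 39.7 in the wild type. Its log2 fold changes were -0.094 in ntrc-2cpab and -0.11 in 2cpab, with 95% intervals that stayed within -0.31 and 0.11. JAZ6 ranged from 23.8 to 56.6 over the 9 samples, JAZ2 from 7.09 to 15.7, JAZ1 from 5.38 to 16.8 and JAZ5 from 3.03 to 11.2, each with its highest value in ntrc-2cpab replicate 3. JAZ3, the adaptor NINJA, which links JAZ proteins to a corepressor, and the bHLH repressor JAM1 stayed within 4.18 to 7.93, 8.23 to 13.8 and 4.28 to 7.34.

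JAZ8 and JAZ10, both jasmonate-inducible repressors, had higher values without overlap in at least 1 mutant. JAZ10 (AT5G13220) had an abundance of 1.09, 1.5 and 3.41 in ntrc-2cpab, 1.25, 2.13 and 1.22 in 2cpab and 1.18, 0.723 and 0.745 in the wild type. All 2cpab samples lay above all wild-type samples, narrowly (log2 fold change 0.42, limma adjusted p = 0.445), as 11% of all tested genes did. In ntrc-2cpab the estimate was larger at 0.60 but replicate 1 lay within the wild-type range (unadjusted p = 0.0434, limma adjusted p = 0.192). JAZ8 (AT1G30135), a repressor that resists degradation, had 0.346, 0.551 and 1.41 in ntrc-2cpab and 0.168, 0.702 and 0.304 in 2cpab, and was listed at 0, 0 and 0.0971 in the wild type. Neither mutant overlapped the wild type, but every JAZ8 value was close to the lower end of the table and JAZ8 was too low to enter the test. When all loci were tested regardless of level, JAZ8 was not called in ntrc-2cpab (unadjusted p = 0.0176, limma adjusted p = 0.216) or in 2cpab (limma adjusted p = 0.623). JAZ7 ranged from 0.254 to 2.01 with its highest value again in ntrc-2cpab replicate 3.

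Across the 10 repressor genes tested the median log2 fold change was 0.076 in ntrc-2cpab and -0.089 in 2cpab against the wild type, with 5 and 4 positive estimates. Without ntrc-2cpab replicate 3 the ntrc-2cpab median was -0.095, and without ntrc-2cpab replicate 1 it was 0.41. Without wild type replicate 1 it was 0.22, and without wild type replicate 2 it was -0.023. In 2cpab the repressor median was 0.064 without wild type replicate 1, -0.16 without wild type replicate 2 and 0.057 without 2cpab replicate 1. JAZ10, JAZ12, COI1, MYC2 and THI2.1 overlap loci annotated on the opposite strand, and the use of strand in counting is not stated in the labels.

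Genes for perception and MYC activators varied little between samples, MYC2 apart. COI1, the receptor gene, stayed between 7.64 and 10.1 in all 9 samples, and its log2 fold changes of -0.055 in ntrc-2cpab and -0.082 in 2cpab had 95% intervals within -0.30 and 0.17. MYC2 (AT1G32640), the leading activator of the branch, had 12.7, 22.3 and 29.8 in ntrc-2cpab, 14.1, 18.4 and 19.2 in 2cpab and 30.5, 20.6 and 22.2 in the wild type. The 2cpab samples lay below the wild-type samples without overlap (log2 fold change -0.47, limma adjusted p = 0.405), and reads of the overlapping locus on the other strand may be among them. MYC3 (AT5G46760), a partly redundant relative, had 12.6, 13.5 and 15.3 in ntrc-2cpab, 12.8, 13.6 and 13.7 in 2cpab and 13.8, 14.5 and 14.5 in the wild type. Its 2cpab samples were also the lower ones, by a log2 fold change of only -0.090 (limma adjusted p = 0.608). MYC4 (AT4G17880) separated the other mutant, at 11.3, 11.3 and 9.06 in ntrc-2cpab, 10.9, 12.3 and 12.0 in 2cpab and 14.9, 11.9 and 12.3 in the wild type. Here ntrc-2cpab lay below the wild type without overlap (log2 fold change -0.28, unadjusted p = 0.0291, limma adjusted p = 0.157). Over the 4 tested genes COI1, MYC2, MYC3 and MYC4, the median log2 fold change was -0.14 in ntrc-2cpab and -0.11 in 2cpab against the wild type, and 0 of 4 estimates were positive in either.

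The tally of tested genes without overlap was below or near the table's own share. In 2cpab 5 of the 31 tested genes were separated from the wild type, with LOX2, MYC2, MYC3 and CORI3 lower and JAZ10 higher, where 11.6% of all tested genes were lower and 11% higher without overlap (22.6% in all). In ntrc-2cpab it was 1 of 31, with MYC4 lower and 0 higher, where 13.9% of all tested genes were lower and 14.3% higher without overlap (28.2% in all). Of the 31, 0 separated ntrc-2cpab from 2cpab, where 5.37% of all tested genes were higher and 4.53% lower without overlap (9.91% in all).

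Activators of the ethylene branch were near the lower end of the table. ORA59 (AT1G06160) stood at 0.752, 0.637 and 1.06 in ntrc-2cpab, 0.301, 0.503 and 0.752 in 2cpab and 0.0845, 0.157 and 0.457 in the wild type. The ntrc-2cpab samples lay above the wild type without overlap. ORA59 was below the level required for the test, and was not called when all loci were tested (unadjusted p = 0.00975, limma adjusted p = 0.174). ERF1 did not exceed 0.214 in any sample.

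Both turnover genes, which oxidise the active conjugate, had positive estimates in both mutants and wide spreads. CYP94B3 (AT3G48520) had 1.37, 0.975 and 3.26 in ntrc-2cpab, 0.686, 4.72 and 0.351 in 2cpab and 2.03, 0.144 and 0.149 in the wild type. Its highest sample was 2cpab replicate 2, and all groups overlapped (log2 fold changes 0.77 and 0.57 for ntrc-2cpab and 2cpab against the wild type, limma adjusted p = 0.439 and 0.648). CYP94C1 (AT2G27690) had 2.68, 1.27 and 5.83 in ntrc-2cpab, 1.70, 3.64 and 1.58 in 2cpab and 1.87, 0.586 and 0.973 in the wild type. In ntrc-2cpab its log2 fold change was 0.89 (unadjusted p = 0.0478, limma adjusted p = 0.201), with wild type replicate 1 above ntrc-2cpab replicate 2.

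**Figure D3:**
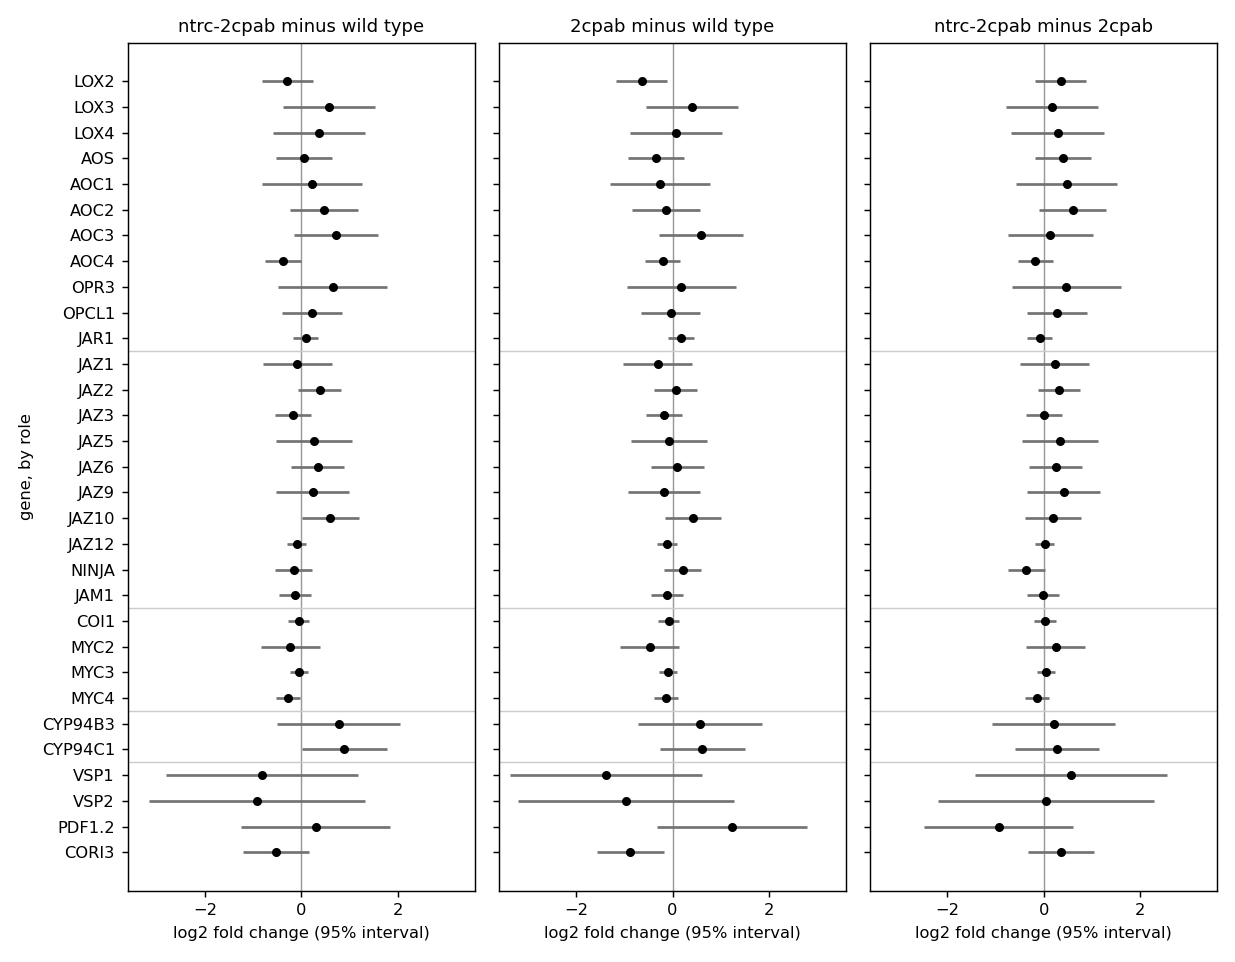
Log2 fold changes with 95% intervals (limma, n = 3 per genotype) of the 31 tested jasmonate genes for ntrc-2cpab minus wild type, 2cpab minus wild type and ntrc-2cpab minus 2cpab. Intervals are narrowest for COI1, MYC3 and JAZ12 and widest for VSP1 and VSP2, and no gene was called.

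VSP1 and VSP2, outputs of the MYC branch, had the highest SD between replicates among the 31 genes. VSP2 (AT5G24770) had 8.89, 36.6 and 44.0 in ntrc-2cpab, 26.8, 14.5 and 34.4 in 2cpab and 200, 7.89 and 62.6 in the wild type. The highest and the lowest of the 9 samples were thus both wild type, and differed 25.4-fold. VSP1 (AT5G24780), described as its pair after its values were seen, had 1.47, 5.93 and 11.4 in ntrc-2cpab, 2.24, 3.42 and 3.58 in 2cpab and 38.5, 1.47 and 10.8 in the wild type. VSP1 and VSP2 share 90.4% of aligned coding bases, and their abundance ratio, VSP2 over VSP1, lay between 3.88 and 12.0. Against the wild type VSP2 differed by -0.92 in ntrc-2cpab and -0.97 in 2cpab on the log2 scale, with 95% intervals from -3.16 to 1.32 and from -3.21 to 1.27 (limma adjusted p = 0.611 and 0.659).

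CORI3 (AT4G23600), a cystine lyase gene induced by jasmonate and the bacterial mimic coronatine, gave the lowest adjusted p of the set in 2cpab. It stood at 15.2, 25.5 and 36.9 in ntrc-2cpab, 15.4, 15.9 and 27.0 in 2cpab and 38.7, 28.3 and 40.1 in the wild type. Every 2cpab sample lay below every wild-type sample, by means of 19.4 ± 6.53 against 35.7 ± 6.43 (SD, n = 3 each, log2 fold change -0.87 with a 95% interval from -1.56 to -0.19, limma adjusted p = 0.198). In ntrc-2cpab the CORI3 samples overlapped the wild type (log2 fold change -0.52, limma adjusted p = 0.33).

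PDF1.2 (AT5G44420) did not follow VSP1 and VSP2 over the wild-type samples. It had 14.0, 59.3 and 21.6 in ntrc-2cpab, 35.1, 39.9 and 95.8 in 2cpab and 10.3, 15.0 and 59.9 in the wild type. Within 2cpab PDF1.2 ran in the same order as VSP1 and CORI3. Within ntrc-2cpab, replicate 1 was the lowest for PDF1.2, VSP1, VSP2 and CORI3. Wild type replicate 1, highest for VSP2, was the lowest of all for PDF1.2. The log2 fold change was 0.30 in ntrc-2cpab and 1.23 in 2cpab against the wild type (limma adjusted p = 0.833 and 0.393), and -0.94 for ntrc-2cpab against 2cpab (limma adjusted p = 0.993). PDF1.2 shares 93.8% and 93.4% of coding bases with PDF1.2b and PDF1.2c, and its level is uncertain to that extent. THI2.1, a thionin gene known mainly from flowers, was listed at 0 in 6 samples and did not exceed 0.40.

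Over the 4 output genes tested the median log2 fold change was -0.67 in ntrc-2cpab and -0.92 in 2cpab against the wild type. It was 0.23 and -0.041 for synthesis and 0.076 and -0.089 for repressors. In each mutant 1 of the 4 output estimates was positive, that of PDF1.2 (0.30 and 1.23), so the output genes did not move as 1 class. The output medians depended on single samples. Without wild type replicate 1 they were -0.044 in ntrc-2cpab and -0.18 in 2cpab, and without wild type replicate 2 they were -1.27 in ntrc-2cpab and -1.61 in 2cpab. The ntrc-2cpab value was also -0.19 without ntrc-2cpab replicate 1 and -1.07 without ntrc-2cpab replicate 3. The SD of the output median between replicates was 1.02. That is a spread of single samples, whereas each difference is between groups of 3 samples.

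Salicylic acid response genes, whose pathway is known to act against jasmonate outputs, varied in the same wild-type samples. The median deviation of 10 such genes was -0.77, 0.72 and -0.46 in wild type replicates 1, 2 and 3, where the output median was 1.62, -1.17 and 0.92. In ntrc-2cpab the 10 genes stood at -0.11, -0.028 and 0.63 and the outputs at -1.22, 0.20 and 0.52. The list medians thus ran in opposite order over the wild-type samples and in the same order over the ntrc-2cpab samples. Single output genes differed. In the wild type VSP1 and VSP2 followed the output median, whereas CORI3 was highest in replicate 3 and PDF1.2 lowest in replicate 1. In ntrc-2cpab VSP1, VSP2 and CORI3 followed it and PDF1.2 did not. In 2cpab the 10 genes stood at 0.20, -0.011 and 0.11 and the outputs at -0.43, -0.57 and 0.13. Their summed abundance ran from 168 to 316 in ntrc-2cpab, from 195 to 264 in 2cpab and from 71.4 to 292 in the wild type. PR1, a salicylic acid marker, was 0.259, 24.4 and 3.90 in wild type replicates 1, 2 and 3. Of the 10 genes 0 were called by limma in any comparison, and an unadjusted p under 0.05 was reached by 2 in ntrc-2cpab and 1 in 2cpab against the wild type, and by 0 in ntrc-2cpab against 2cpab. Over all genes those shares were 24.4%, 17.3% and 4.32%, in the same order of comparisons.

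**Figure D4:**
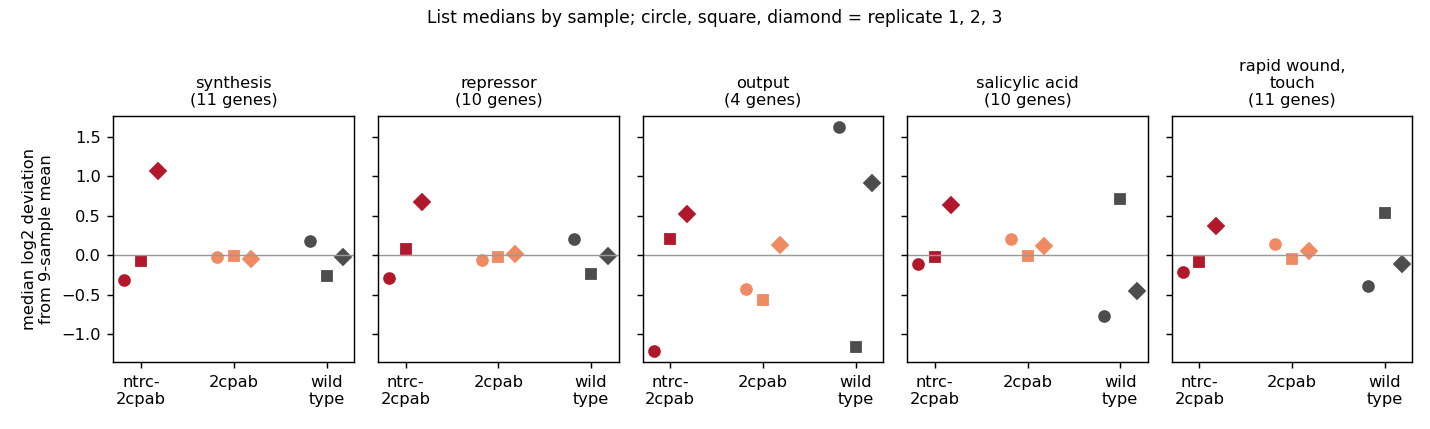
Median log2 deviation from the 9-sample mean, for each sample, of synthesis, repressor and output genes and of 2 context lists. The output and salicylic acid medians lie in opposite order in the wild type and in the same order in ntrc-2cpab. Not every output gene follows its median. Replicate 3 of ntrc-2cpab is highest for synthesis and repressors.

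Of 12 rapid wound and touch response genes, 11 were tested. Their median deviation was 0.37 in ntrc-2cpab replicate 3 and 0.54 in wild type replicate 2. It lay between -0.39 and 0.14 in the other 7 samples. In any comparison 0 of the 11 were called by limma, and an unadjusted p under 0.05 was reached by 2 in ntrc-2cpab (24.4% of all genes), 0 in 2cpab (17.3%) and 1 in ntrc-2cpab against 2cpab (4.32%). Phloem markers, whose cells are a site of jasmonate synthesis, summed to between 106 and 120 in ntrc-2cpab, between 97.6 and 113 in 2cpab and between 126 and 131 in the wild type. Guard cell markers summed to between 18.2 and 20.3 in ntrc-2cpab, between 15.1 and 19.6 in 2cpab and between 21.0 and 24.4 in the wild type. Both sums were lower in every mutant sample than in any wild-type sample, as was the sum of the mesophyll markers. By single gene, 2 of 5 phloem, 1 of 3 tested guard cell and 2 of 3 mesophyll markers were lower without overlap in ntrc-2cpab. In 2cpab it was 3 of 5, 1 of 3 and 1 of 3. Over all tested genes the shares were 13.9% in ntrc-2cpab and 11.6% in 2cpab. Of these markers 0 were called by limma in either mutant. Xylem markers summed to between 22.7 and 28.3 in ntrc-2cpab, between 25.1 and 33.2 in 2cpab and between 28.0 and 30.8 in the wild type. Although these sums overlapped, 3 of 5 tested xylem markers were lower without overlap in ntrc-2cpab, and 0 of 5 in 2cpab. Of the tested xylem markers 0 were called by limma in either mutant. Trichome markers summed to between 5.78 and 10.8 in ntrc-2cpab, between 6.05 and 10.3 in 2cpab and between 7.34 and 13.3 in the wild type. The part of salicylic acid genes, wounding or these cell types in the jasmonate values was not tested.

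Among 32 other genes of the pathway, chosen by function, 24 were tested and 0 were called by limma in any comparison. An unadjusted p under 0.05 was reached by 2 of the 24 in ntrc-2cpab (24.4% of all genes), 3 in 2cpab (17.3%) and 1 in ntrc-2cpab against 2cpab (4.32%). Their median log2 fold change was 0.0084 in ntrc-2cpab and 0.0076 in 2cpab against the wild type. TAT3, a jasmonate-responsive tyrosine aminotransferase gene, showed the largest estimate in ntrc-2cpab, with 13.2, 31.6 and 63.4 in ntrc-2cpab, 19.9, 23.6 and 23.2 in 2cpab and 5.5, 15.5 and 10.3 in the wild type. Its 2cpab samples lay above all wild-type samples, and the log2 fold changes were 1.54 in ntrc-2cpab (unadjusted p = 0.0113, limma adjusted p = 0.102) and 1.12 in 2cpab (limma adjusted p = 0.282). PDF1.3, a defensin gene that shares 91.4% of coding bases with PDF1.2, had 2.30, 4.53 and 1.75 in ntrc-2cpab, 6.48, 5.12 and 12.0 in 2cpab and 1.90, 1.18 and 4.21 in the wild type. It was separated from the wild type in 2cpab (log2 fold change 1.39, unadjusted p = 0.0049, limma adjusted p = 0.128) and not in ntrc-2cpab. PDF1.3 also lay lower in ntrc-2cpab than in 2cpab without overlap (log2 fold change -1.19, unadjusted p = 0.0117, limma adjusted p = 0.993). PDF1.2b had a log2 fold change of -1.27 in ntrc-2cpab and -0.22 in 2cpab (limma adjusted p = 0.242 and 0.89), and PDF1.2c 0.27 and 0.74 (limma adjusted p = 0.802 and 0.526). PR4 (HEL), a hevein-like gene of the ethylene branch, had 0.65 and 0.92 (limma adjusted p = 0.241 and 0.192). AT2G38240, annotated as an oxygenase, reached 1.93, 0.892 and 5.45 in ntrc-2cpab, 0.189, 2.43 and 0.456 in 2cpab and 0.80, 0 and 0.154 in the wild type. Its ntrc-2cpab samples lay above the wild type without overlap, narrowly, as 14.3% of all tested genes did (log2 fold change 1.37, unadjusted p = 0.0205, limma adjusted p = 0.133).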

How the data were processed

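The table the authors deposited holds log2 values of poly(A) RNA for 33602 loci and 9 samples. The submitters' processing notes name HISAT2, StringTie, FastQC and the build TAIR10, while settings and scaling were not stated. The deposited log2 values were read as log2(abundance + 1): with an offset of 1, at least 98.8% of the 400 lowest abundances per sample were whole multiples, within 0.1, of a single step size for that sample. The upper quartile was 2.75 in each sample, so changes in total RNA cannot be seen, and whether the abundance is FPKM or TPM is unknown.

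Columns were matched to samples by name. Loci with a mean abundance of at least 1 (16384) were tested with limma 3.58.1 in R 4.3.3 (lmFit, contrasts.fit, eBayes with trend) on all 9 samples (6 residual degrees of freedom). All tests were two-sided and were adjusted by Benjamini-Hochberg within each comparison, and called at 0.05. The test was tried on simulated data. Fold changes are on the log2(abundance + 1) scale, which understates changes of low genes. Members and gene lists were chosen with earlier results of these data known. Genes given in full by rule were those called, those whose mutant and wild-type samples did not overlap, and the 2 of each role with the highest mean, and of other pathway genes the 6 with the largest fold change. OPR3 and VSP1 were added. Sequences, coding identity and overlaps come from RefSeq TAIR10.1, matched by locus for all 36 genes.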

Additional observations from a re-analysis of the deposited data

How the results depend on the processing

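The count of 0 jasmonate genes called held in every comparison under each alternative run: no filter on low abundance (all 36 genes tested), a mean of at least 5, a pseudocount of 0.1, quantile normalization, equal summed abundance of nuclear loci, only the 2 genotypes compared, a replicate block, and each sample left out. At least 1 refit changed the sign of the estimate for 15 of 31 genes in ntrc-2cpab against the wild type. The number was 11 of 31 for 2cpab against the wild type and 21 of 31 for ntrc-2cpab against 2cpab. By refit, the sign changed in 26, 19 and 50 of 524, including the run without 2 samples given below. Many refits could not move an estimate: the abundance filters, the fit of 2 genotypes, the replicate block, and leaving out a sample of the third genotype. The lowest adjusted p over all refits was 0.089, 0.122 and 0.818 (limma). The repressor median for ntrc-2cpab against the wild type ran from -0.095 to 0.41 when 1 sample was left out, and was -0.082 with a mean of at least 5 and 0.25 with no filter, against 0.076.

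Counts over the whole table were less stable, and the cause was not tested. For ntrc-2cpab against the wild type, 2cpab against the wild type and ntrc-2cpab against 2cpab the main counts were 645, 22 and 1. They were 194, 35 and 4 with no filter, 50, 6 and 2 with only the 2 genotypes compared, and 49 to 761, 4 to 116 and 1 to 2 when 1 sample was left out. The first count was 49 without wild type replicate 1 and 56 without ntrc-2cpab replicate 1, and between 174 and 475 without any other sample but wild type replicate 2 (761). The second was 116 without wild type replicate 2 and 4 without 2cpab replicate 2. Without wild type replicate 1 and ntrc-2cpab replicate 3 together, chosen after seeing the data, they were 7, 7 and 2. For 2cpab against the wild type, 26 genes were higher and 15 lower (41) with equal nuclear sums and 17 and 11 with quantile normalization, against 11 and 11. With the replicate block the counts were 357, 9 and 1. Replicate numbers gave no clear pairing of the samples. Of 9 same-numbered pairs 3 correlated above 0.1 in their deviations from group means, with a range from -0.16 to 0.21. Pairs of different number ranged from -0.34 to 0.25. The 3 deviations within a genotype depend on each other, and whether a number marks a shared batch was not tested. Depth is unknown, so the counting limit of genes near 0, such as JAZ8 and ORA59, could not be calculated.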
